A study of Mus musculus with 8 samples.

Results

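Expression of 10 genes of enterocyte lipid uptake and lipoprotein assembly (Cd36, Fabp1, Fabp2, Apoa1, Apoa4, Apob, Apoc3, Mttp, Mogat2 and Dgat2) was followed in bulk RNA sequencing of mouse colon. The genes were chosen by symbol, and all 10 were found among the 52636 gene identifiers of the deposited count table. The tissue came from wild-type C57BL/6 female mice, 6 weeks old, housed in gnotobiotic isolators. One group received the yeast C. albicans SC5314 by gavage (3 libraries), one received C. tropicalis MYA-3404 (2 libraries), and one was labelled control (3 libraries); colon was collected at day 30. The labels number the replicates and do not tie each one to its own animal; the p-values therefore reflect only how these 8 libraries vary, and some of that may be technical. Neither the colon segment taken nor the hour of collection is given in the sources used here.

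Absorptive epithelial cells take up fatty acids and monoacylglycerols, bind them in the cytosol, rebuild triglyceride at the endoplasmic reticulum and load it onto apolipoprotein B to form chylomicrons. CD36 is a membrane receptor for long-chain fatty acids, FABP1 and FABP2 carry fatty acids in the cytosol, MOGAT2 and DGAT2 add acyl chains to monoacylglycerol and diacylglycerol, and MTTP transfers the lipid to apolipoprotein B. Apolipoproteins A-I, A-IV and C-III join the particle surface. The pathway is known mainly from the small intestine, and the colon is known to carry much less of it.

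The members did not share one level in this colon tissue. Fabp2, Dgat2 and Apob gave 11306, 9315 and 7781 reads over the 8 libraries, while Fabp1 gave 6 and Apoa4 gave 2. The stretches of 250 bases before the RefSeq start sites of Fabp1, Fabp2, Apoa4 and Apob are shown because these are the fatty acid binding proteins and apolipoproteins at the bottom and near the top of the range. Sequences are from RefSeq on GRCm38.p6, plus strand for all 4, written 5′ to 3′. They lie at chr6:71199629-71199878 (Fabp1), chr3:122894822-122895071 (Fabp2), chr9:46240594-46240843 (Apoa4) and chr12:7977427-7977676 (Apob). Capitals mark matches on either strand to 5 letter patterns. The core bound by the liver and gut factor HNF4 was searched as CAAAGTCCA. A shorter core shared by many nuclear receptors was searched as AGGTCA. For the GATA family of zinc finger factors the letters were AGATAA. For the intestinal homeobox factors of the CDX family the letters were TTTATNG. The last pattern, the box found near many start sites, was searched as TATAAA.
Fabp1: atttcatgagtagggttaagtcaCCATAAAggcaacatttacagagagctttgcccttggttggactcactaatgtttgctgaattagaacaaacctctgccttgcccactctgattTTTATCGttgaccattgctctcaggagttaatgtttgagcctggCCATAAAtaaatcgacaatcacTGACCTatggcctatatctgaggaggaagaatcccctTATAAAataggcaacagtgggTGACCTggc
Fabp2: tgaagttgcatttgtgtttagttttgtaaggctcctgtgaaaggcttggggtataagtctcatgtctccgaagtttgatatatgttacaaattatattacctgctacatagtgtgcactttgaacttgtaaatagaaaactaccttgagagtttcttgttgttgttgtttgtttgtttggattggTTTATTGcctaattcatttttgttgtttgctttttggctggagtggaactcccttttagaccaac
Apoa4: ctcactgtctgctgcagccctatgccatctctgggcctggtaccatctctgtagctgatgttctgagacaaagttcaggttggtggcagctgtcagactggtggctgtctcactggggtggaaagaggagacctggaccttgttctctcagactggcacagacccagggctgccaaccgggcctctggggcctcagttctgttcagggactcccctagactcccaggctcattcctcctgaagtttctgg
Apob: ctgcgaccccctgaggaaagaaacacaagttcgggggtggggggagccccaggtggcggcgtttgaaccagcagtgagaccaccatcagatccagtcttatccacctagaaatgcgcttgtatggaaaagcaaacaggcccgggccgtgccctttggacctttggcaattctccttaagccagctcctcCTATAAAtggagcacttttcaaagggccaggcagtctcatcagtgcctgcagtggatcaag

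Fabp1 held 6 matches in this window: 3 of the CDX pattern, 2 of AGGTCA and 1 TATAAA, the last from 30 to 25 bases before the start. Fabp2 held 1, a CDX pattern. Apob held a TATAAA from 60 to 55 bases before the start, and a CDX match on the other strand covers the same letters. Apoa4 held none. Over 32851 mouse promoter windows of the same length, the CDX pattern was present in 9.81%, AGGTCA in 14.0%, TATAAA in 12.4%, AGATAA in 9.99% and CAAAGTCCA in 0.384%. Of the 4 windows shown, the one with the most matches belongs to one of the 2 genes with almost no reads. A match describes letters only. A promoter entry was found for 7 of the 10 members, all but Apoc3, Mogat2 and Dgat2.

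Positions on GRCm38 put several members side by side. Apoa1 (ENSMUSG00000032083), Apoc3 (ENSMUSG00000032081) and Apoa4 (ENSMUSG00000032080) lie within 1 cluster on chromosome 9, from 46228580 to 46243459, with 2.5 kb between the first pair and 5.1 kb between the second and no other coding gene between them. Dgat2 (ENSMUSG00000030747, chromosome 7, 99153658 to 99182719) and Mogat2 (ENSMUSG00000052396, 99219084 to 99238619) are neighbours on the minus strand, 36.4 kb apart. Fabp2 (ENSMUSG00000023057) spans chromosome 3 from 122895072 to 122899506 and Mttp (ENSMUSG00000028158) the same chromosome from 138089854 to 138144968. Cd36 (ENSMUSG00000002944) spans chromosome 5 from 17781690 to 17888801, Fabp1 (ENSMUSG00000054422) chromosome 6 from 71199827 to 71205023, and Apob (ENSMUSG00000020609) chromosome 12 from 7977648 to 8016835. The library kit does not keep the strand. Mttp shares 457 exon bases with Trmt10a on the opposite strand (372 reads against 274 for Mttp). Reads of these 2 genes therefore cannot be fully separated there. Apoa4 shares 634 exon bases with Gm47528 and 632 with Gm10680, and Mogat2 shares 55 with Gm45012. These 3 partners lie on the opposite strand and had 0 reads. The effect of such overlaps on the members' counts was not tested.

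Libraries held 16195376 to 19761098 reads in genes, and 16107 genes passed the filter on low counts, among them 8 members. Levels are CPM, read counts scaled to TMM-corrected library sizes, and groups were compared with edgeR's quasi-likelihood test in one fit of all 8 libraries. The adjusted p is Benjamini-Hochberg over all genes tested. Both colonization contrasts use the same 3 control libraries, so they are not independent. Markers were checked against the labelled tissue: all 20 colonocyte markers were above 1 CPM on average, and of 19 small intestinal enterocyte markers 14 were detected well enough to be tested. Those included the peptidase gene Mep1a at 524 CPM on average, the glucose transporter Slc5a1 at 209.5 CPM and the peptide transporter Slc15a1 at 190.01 CPM. The other 5 were at or near 0: the disaccharidases Lct and Sis had 35 and 17 reads in all, Slc2a2 had 3, and Reg1 and Cyp3a11 had 0. Control 3 stood apart from the other controls and near the C. tropicalis libraries in several members. Log2 fold changes that move by more than 1.5 times, or change their call, when it is left out are therefore given both ways. Control 3 was singled out from the members' own values. Fits without it thus tend by construction to widen the gap to C. tropicalis in those members, and are no independent support.

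No member passed an adjusted p of 0.05 in any of the 3 contrasts. For C. albicans against control 0 of 8 passed, beside 0.0435% of all genes tested (7 genes); for C. tropicalis against control 0 of 8, beside 0.031% (5 genes); and for C. tropicalis against C. albicans 0 of 8, beside 0% of all genes. At an unadjusted p under 0.05 the members numbered 2 (Dgat2 higher, Apoc3 lower), 2 (Fabp2 and Apob lower) and 2 (Fabp2 and Dgat2 lower), against 15.4%, 15.4% and 23.2% of all genes. DESeq2 called 1 (Dgat2), 1 (Apob) and 2 (Dgat2 and Fabp2) members, where it called 461, 393 and 1737 genes in all. The median log2 fold change of the 8 members was -0.46, -0.54 and -0.71, beside -0.0157, -0.0194 and 0.0376 over all genes; these 8 exclude the members without enough reads.

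**Figure D1:**
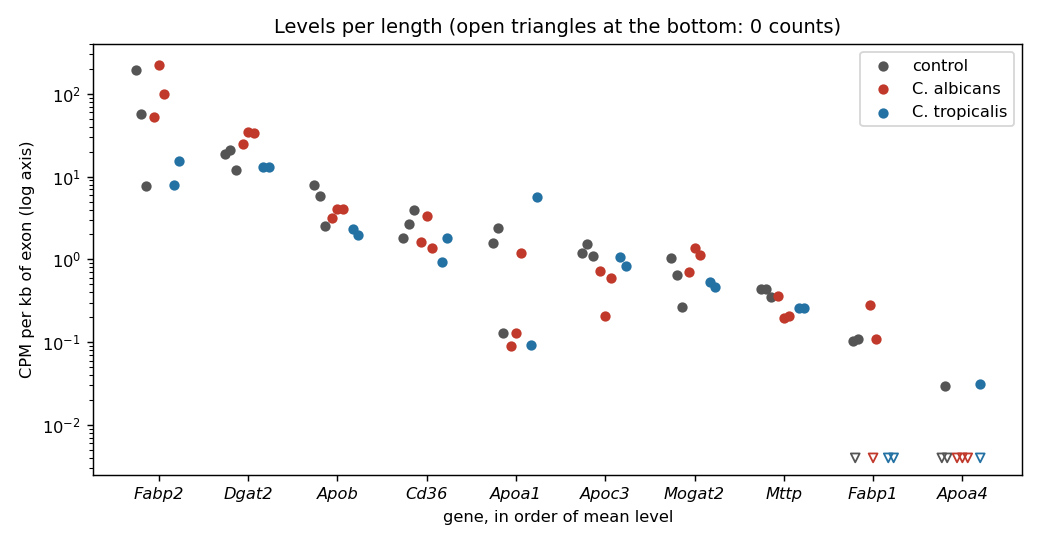
Level of each of the 10 genes per kilobase of exon, on a log axis, with 1 point per library coloured by group and open triangles for libraries with 0 counts. Fabp2 and Dgat2 lead the order, and Fabp1 and Apoa4 are at or near 0 in every library.

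Per length, the order of mean levels over the 8 libraries was Fabp2 (82.1 CPM per kb), Dgat2 (21.4), Apob (3.98), Cd36 (2.20), Apoa1 (1.41), Apoc3 (0.908), Mogat2 (0.767), Mttp (0.313), Fabp1 (0.0758) and Apoa4 (0.00761). Dgat2 was above Apob in all 8 libraries. Fabp2 was above Dgat2 in 6 of 8, because its own range (7.64 to 222.6 CPM per kb) covered the whole Dgat2 range (12.02 to 34.8). Apoa1 and Apoc3 are not ordered by these data: Apoa1 was the higher of the 2 in 4 of 8 libraries. Apoc3 was above Mogat2 in 6 of 8 libraries. For scale, Dgat1, the other diacylglycerol acyltransferase, stood at 22.1 CPM per kb and the fatty acid transporter Slc27a4 at 37.6.

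Uptake was represented by Cd36, which had no clear difference between groups. Its levels were 6.45, 9.53 and 14.3 CPM in controls 1, 2 and 3, 5.85, 12.1 and 4.88 CPM in C. albicans 1, 2 and 3, and 3.37 and 6.57 CPM in C. tropicalis 1 and 2. The groups overlapped in every contrast, with control 3 and C. albicans 2 highest and C. tropicalis 1 lowest. Means were 10.1 ± 3.96 CPM in controls, 7.62 ± 3.94 CPM with C. albicans and 4.97 ± 2.27 CPM with C. tropicalis (SD, n = 3, 3 and 2). The edgeR log2 fold change against control was -0.40 ± 0.42 (SE, adjusted p = 0.645) with C. albicans and -1.02 ± 0.49 (adjusted p = 0.352) with C. tropicalis. Without control 3 these were -0.0655 (adjusted p = 0.954) and -0.68 (adjusted p = 0.467).

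CD36 is also made by adipocytes, capillary endothelium and macrophages, so their markers are given beside it. The adipocyte score, the mean log2 CPM of 10 tested markers out of 11 minus its mean over the libraries, was highest in control 3 (1.47) and C. albicans 2 (1.47) and lowest in C. tropicalis 1 (-2.20), the same libraries as for Cd36. Control 1 departs from this, with a score of -1.43 and Cd36 at 6.45 CPM. Summed adipocyte marker levels ran from 226.6 to 491 CPM in controls, 274.8 to 429.6 CPM with C. albicans and 162.5 to 173 CPM with C. tropicalis; Adipoq, which encodes adiponectin, was 0.06 CPM in control 1 and 14.5 CPM in control 3, and no marker of the list was at 0 in all libraries. Blood endothelial markers summed to 224 to 274 CPM in controls, 272 to 365 CPM with C. albicans and 200.6 to 217 CPM with C. tropicalis, and macrophage markers to 277 to 514 CPM, 289.6 to 432 CPM and 346 to 436 CPM. All 12 markers of each of the last 2 lists were detected. Their part in the Cd36 values was not tested. In these bulk samples, fewer cells of a type and less RNA per cell cannot be told apart.

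Of the cytosolic carriers, Fabp1 was almost unread and Fabp2 had the widest range among the abundant members. Fabp1, the liver-type protein, had 1, 1 and 0 reads in controls, 0, 3 and 1 with C. albicans, and 0 and 0 with C. tropicalis. Where no read was found, a level of up to 3 reads (0.161 to 0.171 CPM in those 4 libraries, counting error only) remains possible, so no difference in Fabp1 was detectable at this depth. The promoter window printed above for Fabp1 therefore belongs to a gene that these libraries scarcely register.

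Fabp2, the intestinal-type protein, was 187, 55.2 and 7.37 CPM in controls 1, 2 and 3, 50.4, 214.9 and 96.3 CPM in C. albicans 1, 2 and 3, and 7.54 and 15.02 CPM in C. tropicalis 1 and 2. C. albicans 2 and control 1 were high, and control 3 fell at the level of the C. tropicalis libraries, so controls overlapped both other groups. The range was 25.4-fold within the controls alone and 29.2-fold over all libraries, while counting error is small at 132 to 4093 reads. Group means were 83.2 ± 93.1 CPM (control), 120.5 ± 84.8 CPM (C. albicans) and 11.3 ± 5.29 CPM (C. tropicalis; SD, n = 3, 3 and 2).

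The 2 colonized groups did not overlap in Fabp2, which is true in this direction of 22.4% of all genes tested. C. tropicalis against C. albicans gave a log2 fold change of -3.42 ± 1.182 (SE, edgeR adjusted p = 0.131), C. tropicalis against control -2.88 ± 1.15 (adjusted p = 0.295) and C. albicans against control 0.54 ± 0.90 (adjusted p = 0.786). Between the species Fabp2 passed the threshold without control 3 (-3.42, adjusted p = 0.0427), in a fit of only those 2 groups (-3.42, adjusted p = 0.0375), with no filter on low counts (-3.41, adjusted p = 0.0456) and with DESeq2 (-3.44, adjusted p = 0.0484). Those 4 fits called 897, 858, 1127 and 1737 genes in all, in the order given, beside 0 in the main fit. With a smooth muscle score as covariate Fabp2 turned to 0.74 ± 0.97 (adjusted p = 0.881). That score was lower in both C. tropicalis libraries than in any other, so this fit cannot separate it from the species. C. tropicalis against control ran from -3.46 without C. tropicalis 2 to -1.47 without control 1, and was -3.42 without control 3 (adjusted p = 0.0726). The value for C. albicans against control turned to -0.0064 without control 3 and to -0.18 without C. albicans 2.

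**Figure D2:**
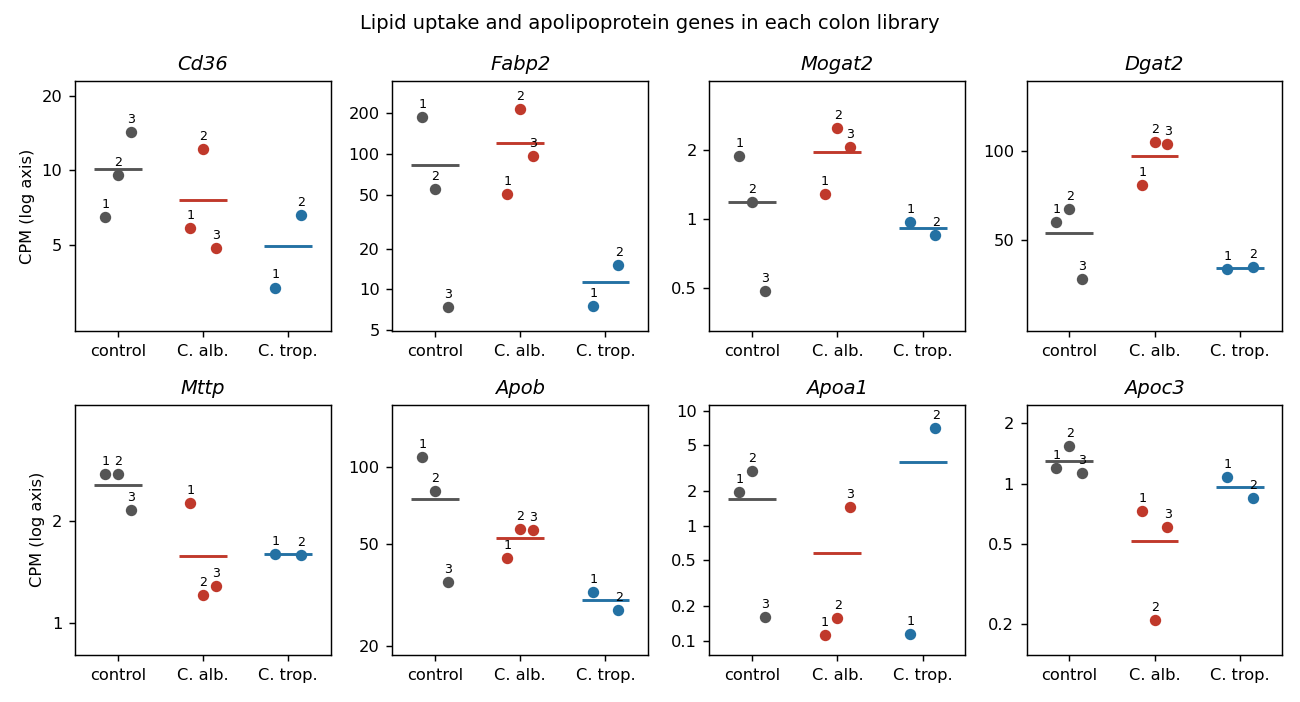
CPM of the 8 tested genes in each library, on log axes, with 1 point per library (numbers are replicate numbers) and a line at the group mean. Control 3 sits with the C. tropicalis libraries for Fabp2, Mogat2, Dgat2 and Apob, and all 3 C. albicans libraries lie above the controls for Dgat2.

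Triglyceride resynthesis was represented by Mogat2 and Dgat2, neighbours on chromosome 7. Dgat2, the acyltransferase of the last step, was 57.5, 63.7 and 37.1 CPM in controls 1, 2 and 3, 76.9, 107 and 105 CPM in C. albicans 1, 2 and 3, and 39.9 and 40.7 CPM in C. tropicalis 1 and 2. Every C. albicans library lay above every control and above both C. tropicalis libraries. A range above control like this was found for 9.82% of all genes. The fold over control was 1.83 (52.8 ± 14.0 to 96.4 ± 16.9 CPM; log2 0.87 ± 0.21 SE, edgeR adjusted p = 0.177), which did not pass, although DESeq2 gave 0.88 with an adjusted p of 0.00884. DESeq2 called 461 genes in all in that contrast, beside 7 in the main fit. Without control 3 the log2 value for Dgat2 was 0.67 (adjusted p = 0.143).

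Between the species Dgat2 had the smallest p of the members. C. tropicalis was 0.418 of C. albicans (40.3 ± 0.582 against 96.4 ± 16.9 CPM), a log2 fold change of -1.26 ± 0.24 (SE, edgeR adjusted p = 0.0646), which did not pass. Other genes, among them Fabp6 and Rbp2, shared that adjusted p, and by p Dgat2 ranked 134 of 16107 genes. In this contrast 1481 genes had an adjusted p under 0.1. The adjusted p of Dgat2 was 0.0385 without control 1, 0.0184 without control 3 and 0.0203 without C. albicans 1. It was 0.0219 in a fit of the 2 groups, 0.0112 with no filter on low counts and 8.82e-05 with DESeq2. Those fits called 925, 897, 1315, 858, 1127 and 1737 genes in all, in the order given, beside 0 in the main fit. The size for Dgat2 ran from -1.43 to -0.50 over all alternatives. The -0.50 was that with the smooth muscle covariate (adjusted p = 0.790). Against control, C. tropicalis gave -0.39 ± 0.24 (adjusted p = 0.450), and -0.59 without control 3 (adjusted p = 0.131).

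Mogat2, which acylates monoacylglycerol and is characteristic of small intestine, was read 9 to 48 times per library. Its levels were 1.88, 1.19 and 0.484 CPM in controls, 1.29, 2.52 and 2.07 CPM with C. albicans, and 0.971 and 0.850 CPM with C. tropicalis. All C. albicans values were above both C. tropicalis values, and controls spanned most of the range. No contrast passed: log2 0.73 ± 0.48 for C. albicans (SE, edgeR adjusted p = 0.471), -0.38 ± 0.56 for C. tropicalis (adjusted p = 0.770) and -1.10 ± 0.56 between the species (adjusted p = 0.276). Without control 3 the first 2 were 0.35 (adjusted p = 0.710) and -0.75 (adjusted p = 0.397). The C. tropicalis value against control turned to 0.13 without control 1 and to 0.75 with the smooth muscle covariate.

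Particle assembly rests on Apob, the structural protein, and Mttp, the transfer protein that lipidates it. Apob was 109, 80.5 and 35.4 CPM in controls 1, 2 and 3, 44.0, 57.2 and 56.8 CPM in C. albicans 1, 2 and 3, and 32.5 and 27.7 CPM in C. tropicalis 1 and 2. Both C. tropicalis libraries lay below every other library, with control 3 next. Ranges below control of this kind occurred in 16.5% of all genes. Means were 75.0 ± 37.2 CPM (control), 52.7 ± 7.55 CPM (C. albicans) and 30.1 ± 3.46 CPM (C. tropicalis; SD, n = 3, 3 and 2).

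For Apob, C. tropicalis against control gave a log2 fold change of -1.32 ± 0.39 (SE, edgeR adjusted p = 0.228), C. tropicalis against C. albicans -0.81 ± 0.39 (adjusted p = 0.248) and C. albicans against control -0.51 ± 0.33 (adjusted p = 0.469). Without control 3 the first was -1.65 (adjusted p = 0.0163), the second -0.81 (adjusted p = 0.0462) and the third -0.85 (adjusted p = 0.112); DESeq2 gave -1.32 for the first (adjusted p = 0.0205), and a fit of the 2 groups -0.81 for the second (adjusted p = 0.0427). With the smooth muscle covariate the first was -0.54 (adjusted p = 0.722) and the second 0.32 ± 0.52 (adjusted p = 0.903). The call for Apob thus appears or disappears with these choices. Over all genes, C. tropicalis against control gave 192 calls without control 3 and 393 with DESeq2, beside 5 in the main fit. Between the species there were 897 without control 3 and 858 in a fit of the 2 groups, beside 0.

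Mttp had 21 to 48 reads per library, a count that the overlap with Trmt10a may have raised or lowered. Its levels were 2.74, 2.74 and 2.15 CPM in controls, 2.25, 1.21 and 1.28 CPM with C. albicans, and 1.599 and 1.587 CPM with C. tropicalis. Both C. tropicalis libraries lay below all controls, and of the C. albicans libraries 2 did. The log2 fold change was -0.69 ± 0.33 with C. albicans (SE, edgeR adjusted p = 0.344) and -0.67 ± 0.37 with C. tropicalis (adjusted p = 0.406). Between the species it was 0.0127 ± 0.37, with a 95% interval of -0.83 to 0.85, which is wide enough to hold the value of either species against control.

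Of the surface apolipoproteins of the chromosome 9 cluster, 2 could be tested and 0 passed in any contrast. Apoa4, a chylomicron protein of the small intestine, had 1 read in control 3, 1 in C. tropicalis 2 and 0 in the other 6 libraries, which allows no comparison. Apoc3, an inhibitor of lipoprotein lipase, had 4 to 26 reads per library. Its levels were 1.1995, 1.55 and 1.13 CPM in controls, 0.731, 0.210 and 0.610 CPM with C. albicans, and 1.08 and 0.850 CPM with C. tropicalis. Every C. albicans library lay below every control, a range seen in 9.57% of all genes, and below both C. tropicalis libraries. The log2 fold change with C. albicans was -1.32 ± 0.46 (SE, edgeR adjusted p = 0.264), with C. tropicalis -0.41 ± 0.49 (adjusted p = 0.707) and between the species 0.91 ± 0.51 (adjusted p = 0.328).

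Apoa1, the main protein of high-density lipoprotein, varied more between libraries than between groups. It had 34, 50 and 3 reads in controls 1, 2 and 3 (1.94, 2.98 and 0.161 CPM), 2, 3 and 24 reads in C. albicans 1, 2 and 3 (0.112, 0.157 and 1.46 CPM), and 2 and 124 reads in C. tropicalis 1 and 2 (0.114 and 7.03 CPM). Each group thus held at least 1 library with 2 or 3 reads and at least 1 with 24 or more. The 2 C. tropicalis libraries differed 61.5-fold (exact 95% interval 16.7 to 514, for counting error only). The log2 fold changes were -1.57 ± 1.37 with C. albicans (SE, edgeR adjusted p = 0.584), 1.08 ± 1.35 with C. tropicalis (adjusted p = 0.725) and 2.65 ± 1.45 between the species (adjusted p = 0.313). Without C. tropicalis 2 the last 2 turned to -3.80 and -2.24. The first ran from -3.54 without C. albicans 3 to -0.86 without control 2, and was -2.11 without control 3, where the second was 0.54. Because liver makes Apoa1, liver markers are given beside it. In the 4 libraries with 24 or more Apoa1 reads, Alb, the albumin gene, was 0.457 CPM (control 1), 0.655 CPM (control 2), 0.183 CPM (C. albicans 3) and 1.36 CPM (C. tropicalis 2), and in the other 4 it ran from 0 in C. albicans 2 to 0.914 CPM in control 3. The fibrinogen genes Fga and Fgb had 0 reads in all 8. Of the 14 liver and pancreas markers, 5 were tested and 10 averaged under 1 CPM, and their summed level was 11.4 to 59.7 CPM in controls, 14.1 to 20.4 CPM with C. albicans and 71.2 to 76.2 CPM with C. tropicalis. Ttr alone gave 5.83 (C. albicans 2) to 54.6 CPM (C. tropicalis 1). With C. tropicalis, Ttr (53.7 CPM on average) and Cps1 (13.4 CPM) made up most of the sum. Alb averaged 1.08 CPM there, and Serpina1a had 4 reads in all 8 libraries. The sum therefore follows these first 2 genes more than the list as a whole. The part of liver or pancreas RNA in the Apoa1 values was not tested.

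**Figure D3:**
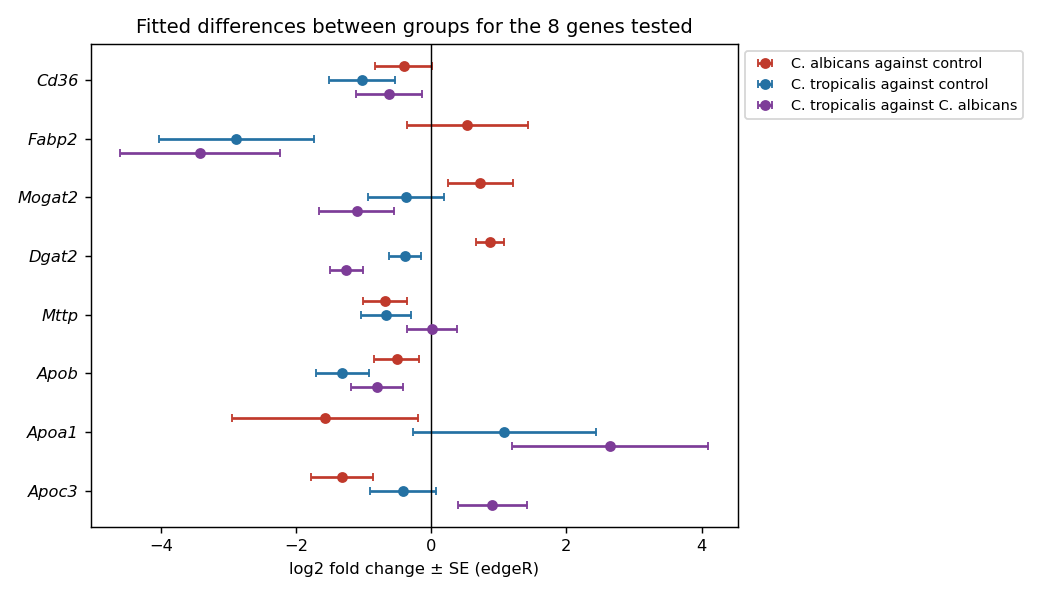
Log2 fold change with its SE (bars) from the edgeR fit for the 8 tested genes in the 3 contrasts. None of the 8 passed an adjusted p of 0.05. Dgat2 between the species had the smallest among them, 0.0646, a value that genes outside the members shared.

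Counted by ranges, 2 of 8 members did not overlap between C. albicans and control (Dgat2 above, Apoc3 below), where 9.82% of all genes lay above and 9.57% below. Against control, C. tropicalis had 3 below (Apob, Apoc3 and Mttp) and 0 above, beside 16.5% and 16% of all genes. Between the species 4 were lower in C. tropicalis (Fabp2, Apob, Mogat2 and Dgat2) and 1 was higher (Apoc3), beside 22.4% and 23.4%. The counts are small, and no test of the list was made.

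Across libraries, Fabp2, Mogat2 and Dgat2 shared their lowest libraries and their highest. Control 3, C. tropicalis 1 and C. tropicalis 2 were the 3 lowest libraries for each of the 3 genes, and C. albicans 2 was the highest. Tissue markers also differed between the 8 libraries, as given below, and the correlations are a description only. Pearson's r of log2 CPM was 0.92 for Fabp2 with Mogat2, 0.83 for Fabp2 with Dgat2, 0.87 for Mogat2 with Dgat2 and 0.80 for Fabp2 with Apob. Apoc3 ran the other way (-0.47 with Fabp2, -0.68 with Dgat2), and Cd36 was near 0 with Fabp2 (0.13). Mttp went with Apoc3 (0.77) and was -0.04 with Fabp2, -0.32 with Mogat2, -0.36 with Dgat2 and 0.44 with Apob.

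**Figure D4:**
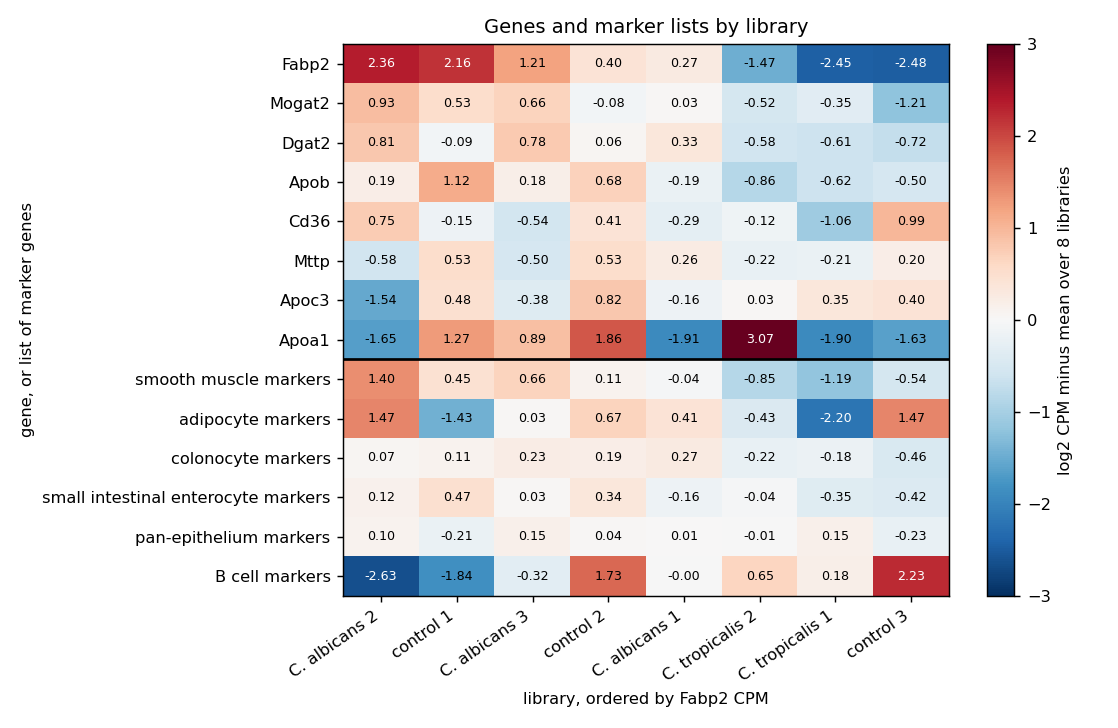
Log2 CPM minus the mean over the 8 libraries for the 8 tested genes (above the line) and mean scores of marker lists (below it), with libraries ordered by Fabp2. The 3 libraries at the right, C. tropicalis 2, C. tropicalis 1 and control 3, are lowest for Fabp2, Mogat2, Dgat2 and the mean smooth muscle and colonocyte scores. Single colonocyte markers went both ways.

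The same 3 libraries were also lowest for smooth muscle markers, with scores of -0.85 (C. tropicalis 2), -1.19 (C. tropicalis 1) and -0.54 (control 3) against 1.40 in C. albicans 2. All 15 markers of that list were detected, and their summed level was 7935 to 15260 CPM in controls, 11257 to 32224 CPM with C. albicans and 4623 to 5936 CPM with C. tropicalis. With C. albicans 15 of the 15 lay above control, with C. tropicalis 15 lay below, and 0 passed in either contrast. Colonocyte scores were also lowest there (-0.22, -0.18 and -0.46), with all 20 markers detected. Their sums did not follow the scores, at 14930 to 18245 CPM (controls), 16893 to 18531 CPM (C. albicans) and 19207 to 19763 CPM (C. tropicalis). Single colonocyte markers were split. Between the species 11 were higher and 9 lower in C. tropicalis, from Slc9a3 (log2 -7.02) to Scnn1g (3.74). Pan-epithelial scores stayed between -0.23 and 0.15, with all 13 markers detected and sums of 17272 to 20370 CPM, 20072 to 23644 CPM and 21122 to 24590 CPM. B cell scores ran from -2.63 in C. albicans 2 to 2.23 in control 3. Circadian clock scores followed the groups, at -0.49 to -0.29 in controls, 0.31 to 0.35 with C. albicans and -0.11 to 0.20 with C. tropicalis. The clock score averages genes that went both ways: with C. albicans 12 of 16 lay above control and 4 below. Against control, 3 passed as higher and 1 as lower (Arntl) with C. albicans, and 1 as higher (Per2) with C. tropicalis. Of all genes 0.0435% and 0.031% passed in these contrasts. Small intestinal enterocyte scores, over 14 tested markers of 19, ran from -0.42 in control 3 to 0.47 in control 1. When the smooth muscle score was added to the fit, Fabp2, Mogat2 and Dgat2 with C. tropicalis against control changed from -2.88, -0.38 and -0.39 to 0.18, 0.75 and 0.0907. Because both C. tropicalis libraries scored below all others, this fit cannot separate the smooth muscle score from colonization with C. tropicalis. The part of tissue makeup in the groups' values was not tested.

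The genes most like the members in pattern, among those of at least 5 CPM, are given by Pearson's r over the 8 libraries as a description. For Fabp2 they were Dixdc1 (0.99), Car8 (0.99) and Tmigd1 (0.99), and Tmigd1 ran from 0.46 CPM in C. tropicalis 1 to 86.5 CPM in C. albicans 2. For Mogat2 they were Tmem238l (0.99), Fam3b (0.99) and Slc1a4 (0.98). For Dgat2 they were Smad6 (0.98), Daglb (0.98) and Fa2h (0.97). For Cd36 they were Fabp4 (0.97), the fatty acid binding protein of adipocytes and endothelium, Rgs10 (0.96) and Tmem123 (0.93). Fabp4 stood at 44.6 CPM in control 3, 37.6 CPM in C. albicans 2 and 9.88 CPM in C. tropicalis 1. For Apob, Mttp, Apoc3 and Apoa1 the nearest were Msantd4 (0.94), Galnt7 (0.97), Jade3 (0.94) and Tasp1 (0.95).

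Other genes of lipid absorption and chylomicron formation, 49 in number, gave 45 that were tested and 0 that passed in any contrast. With C. albicans 19 lay above control and 26 below (median log2 fold change -0.0370), with C. tropicalis 18 above and 27 below (-0.0872), and between the species 28 above and 17 below (0.0405). The most abundant were P4hb, the partner subunit of MTTP, at 467 CPM, the lipase Pnpla2 at 284 CPM and the cargo receptor Surf4 at 228 CPM. Apoa5 had 0 reads and Apoc2 had 2. The smallest p values belonged to Fabp6, the ileal bile acid carrier, and Rbp2, the cellular retinol carrier, which were both higher with C. tropicalis than with C. albicans at an edgeR adjusted p of 0.0646 that did not pass. Fabp6 stood at 1.65 ± 0.178 CPM with C. albicans and 7.61 ± 4.22 CPM with C. tropicalis (log2 2.20 ± 0.38), and Rbp2 at 29.6 ± 8.16 CPM and 72.6 ± 6.56 CPM (log2 1.30 ± 0.23; SD, n = 3 and 2). Mgll, which cleaves monoacylglycerol, gave -1.69 ± 0.39 (adjusted p = 0.0674), and Cidec, a lipid droplet protein that is also on the adipocyte list, -3.05 ± 0.78 (adjusted p = 0.0740).

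Regulators of enterocyte lipid genes (22, all tested) also gave 0 that passed. With C. albicans 15 lay above control and 7 below (median 0.26), with C. tropicalis 11 and 11 (-0.0483), and between the species 8 above and 14 below (-0.18). The epithelial factor Klf4 was 875.8 ± 78.8 CPM in controls, 1559 ± 128 CPM with C. albicans and 1328 ± 315 CPM with C. tropicalis (log2 0.83 against control with C. albicans, edgeR adjusted p = 0.129). Hnf4a, a direct activator of apolipoprotein genes, was abundant at 831 to 1200.2 CPM in every library. Cdx2, an intestinal identity factor, was 339, 192 and 26.9 CPM in controls, 224, 470 and 378 CPM with C. albicans, and 26.3 and 28.6 CPM with C. tropicalis, which is low in the libraries where Fabp2 was low. Between the species Cdx2 gave -3.70 ± 0.89 (adjusted p = 0.0690), the retinoid-responsive repressor Isx -6.42 ± 1.6003 (adjusted p = 0.0717) and Gata5 -3.69 ± 1.01 (adjusted p = 0.0819). The part of these regulators in the members' values was not tested.

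Fatty acid oxidation and PPAR target genes leaned below control, again with 0 passing. Of 23 tested out of 24, 17 lay below control with C. albicans (median log2 fold change -0.21) and 22 with C. tropicalis (-0.26), in contrasts that share the controls, beside medians near 0 over all genes. The ranges did not overlap, with the colonized group below, for 9 and 12 of them, against 9.57% and 16.5% of all genes. The carnitine carrier Slc25a20 went from 216 ± 7.63 CPM in controls to 135 ± 18.5 CPM with C. albicans (edgeR adjusted p = 0.151) and 132.6 ± 23.7 CPM with C. tropicalis (adjusted p = 0.169). Angptl4, a PPAR target that inhibits lipoprotein lipase, was 3.59 ± 1.33 CPM in controls, 1.29 ± 0.412 CPM with C. albicans (adjusted p = 0.203) and 0.597 ± 0.117 CPM with C. tropicalis (adjusted p = 0.135). Both genes were chosen after their values were seen.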

How the data were processed

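The members and gene lists were chosen with earlier results of these data known. Per the submitters' processing notes the tools were TopHat2 2.0.12, HTSeq (version written as 6.1) and DESeq 1.18.0, on build mm10; neither the annotation release nor the strand setting is given in the sources used here. The authors deposited raw read counts per Ensembl identifier with no normalization, and 52489 of 52636 identifiers had a symbol in GENCODE M21 (the other 147 held 0.00317% of counts). Total counts were 16195376 to 19761098 per library, and libraries of a group differed by more than sampling noise.

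The test was edgeR's (version 4.0.16, under R 4.3.3; TMM, filterByExpr, quasi-likelihood F-test, 5 residual degrees of freedom, common coefficient of variation 0.243), with an adjusted p threshold of 0.05. The SE is the log2 fold change divided by the square root of F. The fit was tested on simulated data with known changes. Genes chosen by rule outside the members were the 3 of highest level in a list and those past the threshold. The rule also took the 4 of smallest p in 2 lists and the 3 nearest in pattern to a member. Of these, only those a result turns on are printed. Others, among them Slc25a20, Angptl4, Lrat, Npc1l1, Dgat1, Slc27a4, Adipoq and Alb, were named outside this rule. Alternatives used DESeq2 1.42.0 and limma 3.58.1 among others. Exon length is the union of exons in GENCODE M21.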

Additional observations from a re-analysis of the deposited data

How the results depend on the processing

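The call of 0 members with C. albicans against control stood under every alternative but DESeq2's test (1), and leaving out each library gave 0 to 0. With C. tropicalis against control it stood but for DESeq2 (1) and, without single libraries, 0 to 1. Between the species DESeq2 called 2, the table left unfiltered for low counts gave 2, and it was 3 in a fit of the 2 groups, 1 at an adjusted p under 0.1 and 0 to 3 without single libraries. The count over all genes was 7, 5 and 0 in the 3 contrasts, and changed to 461, 393 and 1737 with DESeq2, to 119, 71 and 1127 with no filter, and to 43, 10 and 1481 at an adjusted p under 0.1. With the smooth muscle covariate it was 11 for C. albicans and 0 for C. tropicalis against control; in a fit of the 2 groups it was 0 for C. tropicalis against control and 858 between the species. Without single libraries it ran from 0 to 254 (C. albicans, highest without C. albicans 1), 0 to 192 (C. tropicalis, highest without control 3) and 0 to 1315 (between the species, highest without C. albicans 1).

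With the replicate number as a block the count over all genes was 0 and 0 for the 2 contrasts against control, and members called stayed at 0; the labels give no sign that a number pairs libraries, and the deviations of same-numbered libraries correlated from -0.39 to 0.16, so the numbers were not taken as pairs.

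The members' median between the species was -0.71 and moved to 0.13 with the smooth muscle covariate. That score was lower in both C. tropicalis libraries than in any other, so fits with it cannot separate it from colonization with C. tropicalis. The same covariate reversed single members: Fabp2 to -0.56 with C. albicans against control, 0.18 with C. tropicalis against control and 0.74 between the species; Mogat2 to 0.75 with C. tropicalis and 0.61 between the species; Dgat2 to 0.0907 with C. tropicalis; and, between the species, Apob to 0.32 and Apoc3 to -0.0622. Mttp between the species, at 0.0127, changed sign to -0.00035 with DESeq2's size factors, -0.0124 with upper-quartile factors, -0.0005999 with DESeq2's test, -0.0717 with the replicate block and -0.45 with the covariate. Leaving out single libraries gave -0.15 to 0.32 for Mttp between the species, -0.18 to 1.95 for Fabp2 with C. albicans, -0.75 to 0.13 for Mogat2 with C. tropicalis, -3.80 to 2.06 for Apoa1 with C. tropicalis and -2.24 to 4.61 for Apoa1 between the species. The causes were not tested. Low read counts limit Fabp1 and Apoa4, which could not be compared, and Apoa1, Apoc3, Mttp and Mogat2, read 124 times or fewer in any library. A library left alone in its group is assumed to vary like the others.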

Other observations

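The 3 genes given here were singled out after their values were seen, and none of them passed the test. Lrat, which esterifies retinol for packaging, was 14.5, 6.14 and 1.61 CPM in controls 1, 2 and 3, 4.72, 12.7 and 7.4998 CPM in C. albicans 1, 2 and 3, and 0.857 and 0.963 CPM in C. tropicalis 1 and 2, so it was low in the 3 libraries where Fabp2 was low. Rbp2, which carries retinol in the cytosol, was highest in C. tropicalis 2 (77.3 CPM) and lowest in C. albicans 2 (21.6 CPM), the library with the most Fabp2. Npc1l1, the sterol transporter of the brush border, ran from 0.228 CPM in C. tropicalis 1 to 5.43 CPM in control 1.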
